A study of Mus musculus with 30 samples.

Results

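The 9 genes described here are those of red cell production that the count tables list under the symbols Hba-a1, Hba-a2, Hbb-bs, Hbb-bt, Alas2, Slc4a1, Klf1, Epor and Tfrc, taken by name from 48709 genes, and all 9 were found. They were measured in 30 total RNA sequencing libraries of adult C57BL/6 mice, from brain, kidney, liver, muscle (quadriceps femoris) and spleen. Each tissue has 3 wild-type (WT) libraries and 3 libraries of mice with 1 functional copy of Ctcf (Ctcf+/-). The labels name no Cre, treatment, age beyond adult or sorting step for either group. Each library is therefore taken to hold the RNA of all cells in its piece of tissue, with any blood left in it. The series was made to study intron retention after loss of a Ctcf copy, and the counts used here are of exons.

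Red cells form in the bone marrow and, in adult mice, also in the red pulp of the spleen. Erythropoietin from the kidney acts through its receptor Epor and keeps erythroid progenitors alive. The transcription factor Klf1 switches on the adult beta globin genes and many other red cell genes, Tfrc brings iron into the cell, Alas2 starts heme synthesis, and Slc4a1 (band 3) is the anion exchanger to which the membrane skeleton of the red cell is anchored. Maturing red cells expel their nucleus and then lose their RNA gradually, so young red cells in circulation still carry globin mRNA. A library of any tissue that held blood can therefore hold globin mRNA without holding erythroid precursors.

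The adult alpha globin genes are near copies of each other, and so are the adult beta globin genes of this strain. Hba-a1 (chr11:32283511-32284465, GRCm38, plus strand) and Hba-a2 (chr11:32296489-32297298, plus strand) lie 12023 bases apart. Their coding sequences in GENCODE M21 hold 429 bases each and differ at 1 position, C381T, counted from 1 at the A of the start codon with the base of Hba-a1 first. Hbb-bs (chr7:103826534-103828096, minus strand) and Hbb-bt (chr7:103812524-103813996, minus strand) lie 12537 bases apart, hold 444 coding bases each and also differ at 1 position, C417T, with the base of Hbb-bs first. The 60 bases around these differences are shown because a coding fragment can be told apart there and nowhere else; the capital marks the base that differs.
Hba-a1: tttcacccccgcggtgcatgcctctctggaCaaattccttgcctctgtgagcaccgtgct
Hba-a2: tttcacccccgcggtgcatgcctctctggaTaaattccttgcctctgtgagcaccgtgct
Hbb-bs: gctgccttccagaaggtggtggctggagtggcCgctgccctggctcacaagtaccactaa
Hbb-bt: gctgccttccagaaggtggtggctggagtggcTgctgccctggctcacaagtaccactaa
The authors did not count fragments that aligned to several places, per the file headers, so fragments from the identical stretches were lost. Of all 100-base windows of the transcript, 56.5% in Hba-a1, 74.5% in Hba-a2, 62.6% in Hbb-bs and 54.8% in Hbb-bt occur unchanged in the partner transcript. Counts of these 4 genes are therefore lower limits, and the split between partners rests mainly on the sequence outside the shared stretches. The other 5 genes have no such partner among the members, although 15.48% of the exon bases of Alas2 (chrX:150547375-150570638) are shared with exons of Apex2 and Mir3620 and were not counted for it.

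Sequences just upstream of the start sites are shown as a description, and their part in the levels of the members was not tested. RefSeq (GRCm38.p6) gave a start site for 8 of the 9 members, and the first was taken where a gene had several. The 250 bases before it were searched on both strands for GATAA, the core that GATA factors bind, CACCC, the core of Klf1 sites, and CCAAT, a common promoter element. GATAA occurred in 7 of the 8 windows, CACCC in 8 and CCAAT in 6, against 22.6%, 52.0% and 33.8% of 32851 RefSeq windows of the same length. All of these motifs together were in 5 of the 8 windows and in 3.45% of all windows. The 5 include Hba-a1 and Hba-a2, whose windows are near copies of each other and so are not independent. The stretches below are the part of 4 windows that lies before the first annotated exon base, with matches on either strand in capitals.
Hba-a2, chr11:32296242-32296488, plus strand: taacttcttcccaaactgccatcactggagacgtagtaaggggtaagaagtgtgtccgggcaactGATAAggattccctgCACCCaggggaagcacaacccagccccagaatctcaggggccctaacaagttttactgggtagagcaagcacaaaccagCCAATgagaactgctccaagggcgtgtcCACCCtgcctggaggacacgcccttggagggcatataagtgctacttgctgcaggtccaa
Hbb-bt, chr7:103813997-103814173, minus strand: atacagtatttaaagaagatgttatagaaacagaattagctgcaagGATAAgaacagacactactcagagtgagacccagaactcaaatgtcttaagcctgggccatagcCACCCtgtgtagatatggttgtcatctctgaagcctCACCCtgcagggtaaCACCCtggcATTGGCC
Klf1, chr8:84901732-84901927, plus strand: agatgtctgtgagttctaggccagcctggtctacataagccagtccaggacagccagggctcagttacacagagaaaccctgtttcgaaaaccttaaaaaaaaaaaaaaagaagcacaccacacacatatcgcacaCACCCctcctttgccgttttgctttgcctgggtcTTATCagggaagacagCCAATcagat
Epor, chr9:21963577-21963826, minus strand: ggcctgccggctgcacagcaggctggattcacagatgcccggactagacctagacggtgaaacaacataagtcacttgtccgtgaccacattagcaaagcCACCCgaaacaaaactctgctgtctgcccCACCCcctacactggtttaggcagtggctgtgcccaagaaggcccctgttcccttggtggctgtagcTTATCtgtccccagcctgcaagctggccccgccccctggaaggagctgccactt
The windows of Hba-a1 and Hba-a2 share an unbroken run of 247 bases, whereas the longest run shared by Hbb-bs and Hbb-bt is 14 bases. Hba-a2 holds its GATAA 185 bases, a CACCC 63 bases and its CCAAT 91 bases before the RefSeq start, each position given for the first base of the match. Hbb-bt holds 3 copies of CACCC and 3 of CCAAT, of which the CCAAT copies nearest the start fall outside the stretch shown. Tfrc, the member with the broadest expression, is the 1 window without GATAA. A match of letters is a description and shows no binding.

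Total counts were 49.8 M to 131.6 M per library, so that 3 counts, the limit that a count of 0 allows, correspond to 0.0228 to 0.0602 CPM, the library-size-scaled count per 1e6 counts. Intervals of that kind cover counting error only. Ctcf checked the genotype labels: its log2 change was -0.57 to -0.70 over the 5 tissues and it passed the test only in brain (edgeR adjusted p 0.0259), with adjusted p-values of 0.107 in kidney, 0.25 in muscle, 0.543 in liver and 0.914 in spleen. Tissue labels fitted their markers: the summed level of 8 spleen markers was 3648.9 to 5361.2 CPM in spleen and at most 15.1 CPM elsewhere. Traces of other organs in spleen went with the genotype groups, with summed liver markers at 34.2 to 39.4 CPM in WT and at most 0.307 CPM in Ctcf+/- spleens, and kidney markers at most 0.404 CPM in WT and 13.8 to 27.3 CPM in Ctcf+/- spleens. Kidney markers also separated the groups in muscle, at 10.3 to 75.4 CPM in WT and 0.114 to 6.12 CPM in Ctcf+/- libraries. In liver their sum was 0.429 to 0.712 CPM in WT and 1.05 to 1.23 CPM in Ctcf+/- libraries. Only 1 of the 8 kidney markers had more than 3 counts in any liver library, so this sum is no sign of kidney tissue there. Among the livers, brain markers summed to 70.1 CPM in WT 3, against 16.8 to 19.9 CPM in the other 5 libraries. Among the kidneys, liver markers summed to 497.4 CPM in Ctcf+/- 3 and to 158.7 to 199.8 CPM in the others. Muscle markers summed to 230.4 CPM in kidney WT 3 and 305.1 CPM in kidney Ctcf+/- 3, against 49.7 to 57.6 CPM in the remaining kidneys. The part of these traces in the results was not tested. Levels below are plain CPM, scaled by the total counts of the library alone. Fold changes and tests come from edgeR with TMM scaling, with p-values adjusted over all genes tested by the Benjamini-Hochberg method. The labels do not say which libraries came from the same mouse, and p-values measure the spread between these libraries.

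The spleen libraries held most of the globin mRNA of the series, and it was also the tissue in which globin levels varied most from library to library. Together the 4 adult globins took 1.55% to 7.79% of all counts in spleen. In the kidney they took 0.173% to 0.313%, followed by liver with 0.0577% to 0.158%, brain with 0.0215% to 0.0341% and muscle with 0.0108% to 0.028%. Hbb-bs, an adult beta chain, stood at 36348.9, 26197.9 and 7570.0 CPM in the WT spleen libraries 1 to 3. It stood at 11305.2, 31663.5 and 16962.2 CPM in the Ctcf+/- ones. The genotypes overlapped fully, and the lowest and highest of the 6 spleens differed 4.8-fold.

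**Figure D1:**
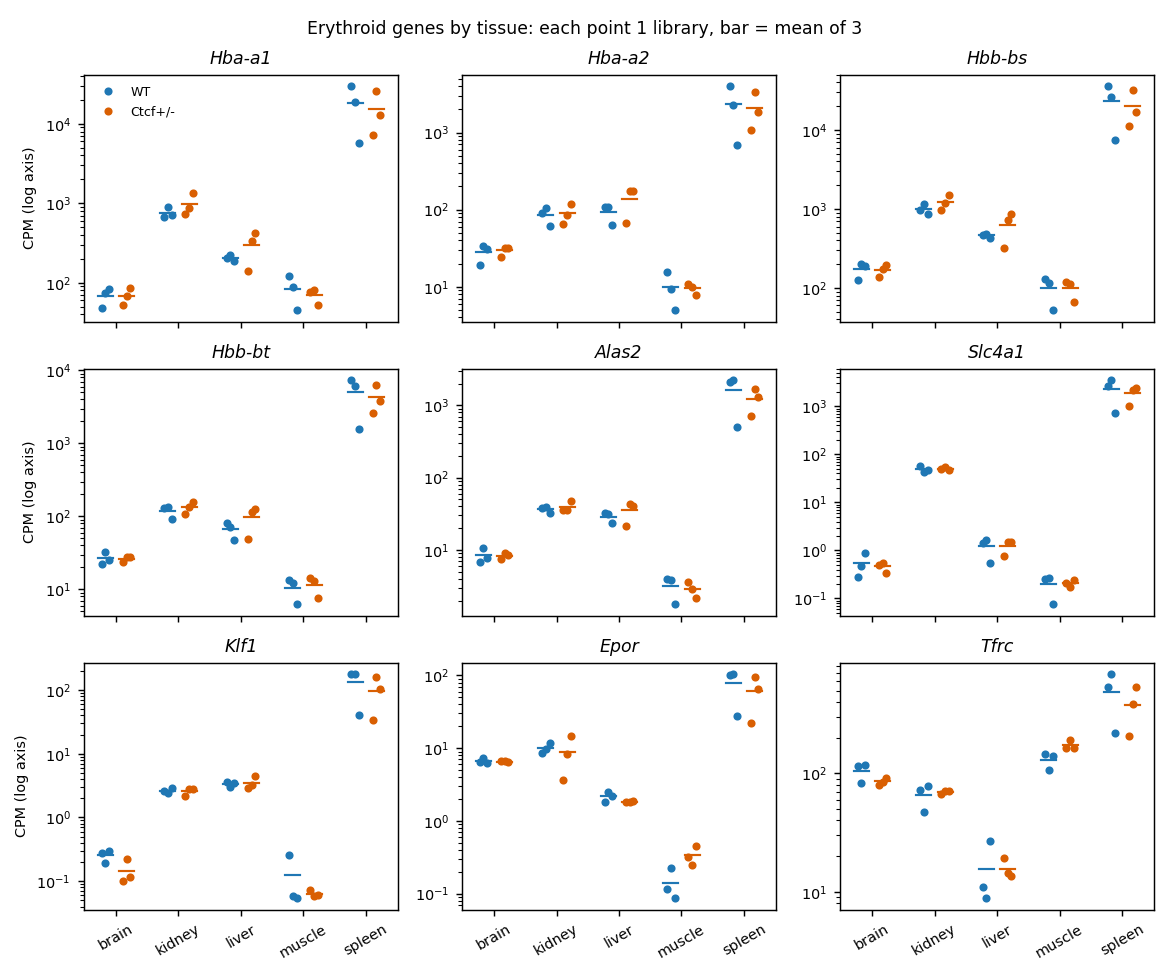
Level of each of the 9 genes in CPM on a log axis, by tissue. Each point is 1 library, WT in blue and Ctcf+/- in orange, and each bar is the mean of 3 libraries. Spleen is the highest tissue for every gene by mean, and Tfrc spans the narrowest range of tissues.

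In the kidney Hbb-bs measured 965.5, 1169.4 and 859.7 CPM in WT and 962.9, 1191.9 and 1490.2 CPM in Ctcf+/- libraries. In the liver it measured 470.8, 482.7 and 431.9 CPM in WT and 320.6, 722.6 and 855.3 CPM in Ctcf+/- libraries. The ranges of kidney and liver touched nowhere. Brain libraries were at 126.0 to 200.6 CPM and muscle libraries at 52.1 to 129.7 CPM, so the bottom of the brain range overlapped the top of the muscle range. WT spleen exceeded WT brain by 7.08 on the log2 scale (SE 0.48, edgeR adjusted p 8.49e-08), WT muscle by 6.6 (SE 0.48), WT liver by 4.54 (SE 0.48) and WT kidney by 4.43 (SE 0.48), the largest of the adjusted p-values being 4.15e-06.

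Hba-a1, an adult alpha chain, followed Hbb-bs. Its 6 spleen libraries lay between 5688.7 and 30107.1 CPM, its kidney libraries between 679.6 and 1363.9, its liver libraries between 139.5 and 425.6, its muscle libraries between 45.0 and 121.1 and its brain libraries between 47.6 and 85.6 CPM. Muscle and brain overlapped for this gene, and the order of their means was the reverse of that for Hbb-bs. Per length, Hbb-bs was the highest member in WT spleen at 30432.6 ± 19005.3 RPKM (CPM divided by the exon length in kilobases, SD, n = 3). Hba-a1 followed at 22444.6 ± 15052.2, Hbb-bt at 7195.0 ± 4367.4 and Hba-a2 at 3519.2 ± 2518.1 RPKM, all lower limits because of the lost fragments.

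Within the spleen the globins outnumbered the other members by far on the same scale. Alas2 stood at 678.3 ± 406.6 RPKM, Slc4a1 at 470.3 ± 294.5, Klf1 at 86.1 ± 51.8, Tfrc at 78.0 ± 38.8 and Epor at 42.8 ± 24.0 RPKM. The WT ranges of Alas2 and Slc4a1, of Klf1 and Tfrc and of Tfrc and Epor overlapped. Slc4a1 and Klf1 did not: the lowest Slc4a1 library was at 150.3 RPKM and the highest Klf1 library at 117.0, and Slc4a1 was 4.61 to 6.24 times Klf1 within each library.

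The partners of each globin pair were not counted in a fixed proportion. Hba-a1 had 6.59 to 8.27 counts for each count of Hba-a2 in the 6 spleens, 7.57 to 11.8 in the kidneys and 6.8 to 9.37 in the muscles. In brain the ratio was 2.1 to 2.71 and in liver 1.91 to 2.97. No brain or liver library came near the other 3 tissues. Because of this split Hba-a2 was higher in liver than in kidney by mean (115.9 against 87.5 CPM over 6 libraries, with overlapping ranges) although Hba-a1 was higher in kidney.

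**Figure D2:**
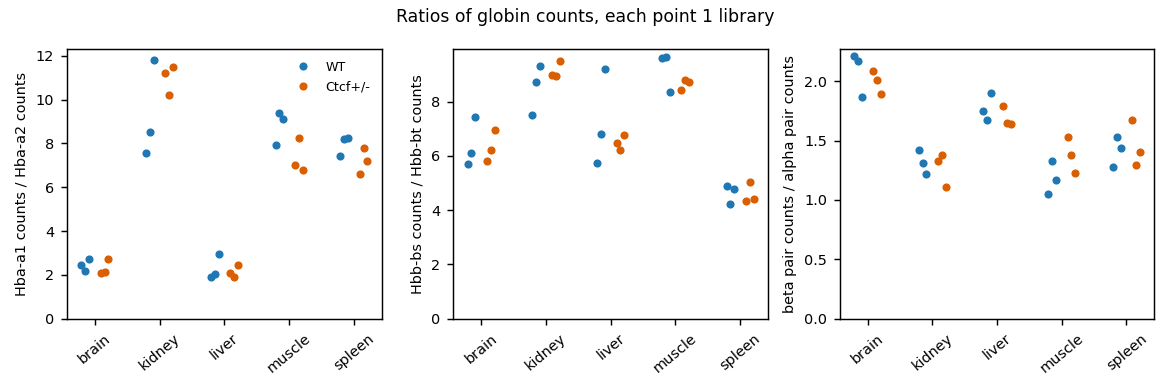
Ratios of globin counts in each of the 30 libraries by tissue, WT in blue and Ctcf+/- in orange, on axes that start at 0. The ratio of Hba-a1 to Hba-a2 separates brain and liver, at 1.91 to 2.97, from kidney, muscle and spleen, at 6.59 to 11.8.

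The beta pair did not separate the tissues in the same way. Hbb-bs had 4.24 to 5.02 counts for each count of Hbb-bt in spleen, the lowest of the 5 tissues, with no overlap with the others. It had 5.71 to 7.43 in brain, 5.72 to 9.21 in liver, 7.5 to 9.5 in kidney and 8.35 to 9.65 in muscle. The counts of the beta pair over those of the alpha pair were 1.28 to 1.67 in spleen, 1.11 to 1.42 in kidney, 1.05 to 1.53 in muscle, 1.64 to 1.9 in liver and 1.87 to 2.21 in brain. Read length and insert size, which set how many fragments of each pair can be told apart, are not given in the sources used here, and the part of the lost fragments in these ratios was not tested.

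Globins of earlier life were close to absent. The embryonic chains Hba-x, Hbb-y, Hbb-bh1 and Hbb-bh2 were highest in spleen, where the highest single value was 0.77 CPM, for Hbb-bh1 in WT 2. The adult theta-like genes Hbq1a and Hbq1b were found mainly in spleen too, at 4.71 ± 2.24 CPM and 26.6 ± 16.4 CPM in WT (SD, n = 3).

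Alas2, the erythroid enzyme of the first step of heme synthesis, kept pace with the globins in every tissue. It measured 2132.7, 2253.3 and 503.8 CPM in WT spleen and 704.3, 1691.4 and 1285.2 CPM in Ctcf+/- spleen. Outside the spleen it ranged from 32.1 to 47.5 CPM in kidney, 21.4 to 43.9 in liver, 6.77 to 10.8 in brain and 1.77 to 3.93 in muscle, and only kidney and liver overlapped. WT spleen was above WT muscle by 7.72 (SE 0.46), above brain by 7.56 (SE 0.46), above kidney by 5.36 (SE 0.45) and above liver by 4.67 (SE 0.45) on the log2 scale, with adjusted p-values of at most 1.56e-06.

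Set against the globins of the same library, Alas2 divided the tissues into a higher and a lower group. There were 25.1 to 42.1 counts of Alas2 for every 1000 globin counts in spleen, 26.1 to 37.3 in liver and 23.8 to 31.7 in brain. Kidney had 15.2 to 20.5 and muscle 13.5 to 16.8. Spleen, liver and brain overlapped each other, and all their libraries lay above those of kidney and muscle.

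Slc4a1, which carries chloride and bicarbonate across the red cell membrane, was by contrast far higher in spleen and kidney than in the other 3 tissues. Spleen libraries had 2595.0, 3570.5 and 735.0 CPM in WT and 1004.9, 2173.3 and 2424.5 CPM in Ctcf+/-. Kidney libraries lay between 42.9 and 56.8 CPM, a range of 1.33-fold. Over the same 6 libraries the globins ranged from 1.7-fold (Hbb-bt) to 2.01-fold (Hba-a1). Klf1 ranged 1.32-fold, Alas2 1.48-fold, Tfrc 1.63-fold and Epor 4.11-fold. In liver, brain and muscle Slc4a1 reached at most 1.68, 0.883 and 0.261 CPM, the liver and brain ranges overlapping. WT spleen exceeded WT muscle by 12.2 (SE 0.66), brain by 12.05 (SE 0.61), liver by 9.7 (SE 0.56) and kidney by 5.42 (SE 0.53) on the log2 scale, with adjusted p-values of at most 2.24e-06.

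Per 1000 globin counts, Slc4a1 stood at 32.3 to 67.9 in spleen and 15.4 to 30.5 in kidney, and at 0.998 to 2.7 in brain, 0.736 to 1.9 in liver and 0.694 to 1.82 in muscle. Acid-secreting intercalated cells of the kidney's collecting duct are known to use a shorter form of band 3 from the same gene, and counts per gene do not separate the forms. In the kidney the order of libraries differed as well: the library with the most Slc4a1 was WT 1, which had the least Hba-a1. The least Hba-a2, Hbb-bs and Hbb-bt were in WT 3, and Ctcf+/- 3 had the most of every globin.

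**Figure D3:**
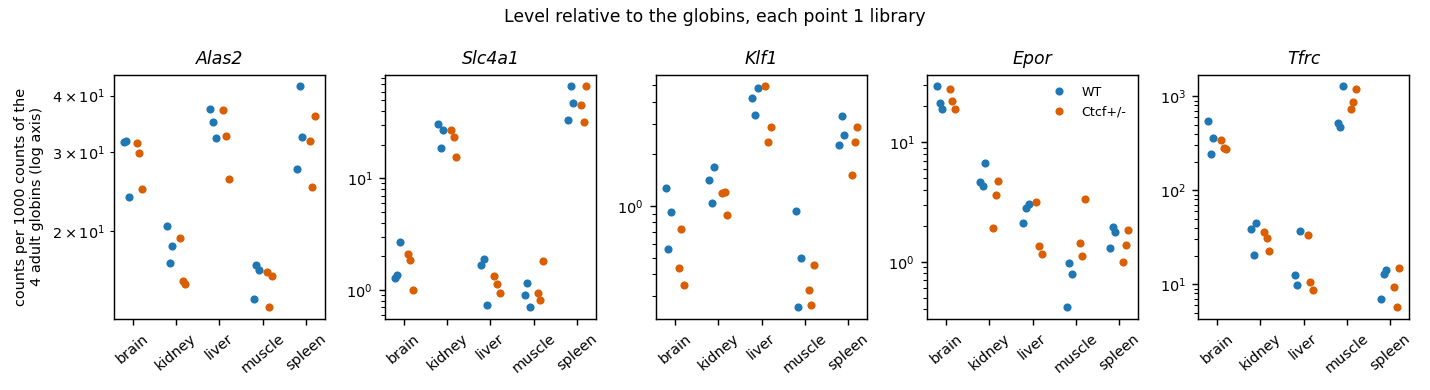
Counts of Alas2, Slc4a1, Klf1, Epor and Tfrc per 1000 counts of the 4 adult globins, on log axes, 1 point per library, WT in blue and Ctcf+/- in orange. Alas2 spans 13.5 to 42.1 over all tissues, whereas Slc4a1 lies at 32.3 to 67.9 in spleen and at 2.7 or less in every brain, liver and muscle library.

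Klf1 marks nucleated erythroid precursors. It measured 176.1, 179.0 and 40.2 CPM in WT spleen and 33.5, 157.4 and 102.5 CPM in Ctcf+/- spleen. Liver followed at 2.87 to 4.55 CPM and kidney at 2.21 to 2.92 CPM, which overlapped, and brain at 0.102 to 0.301 CPM and muscle at 0.0537 to 0.26 CPM, which overlapped as well. WT spleen exceeded WT liver by 4.16 (SE 0.46), kidney by 5.51 (SE 0.46), muscle by 8.74 (SE 0.65) and brain by 9 (SE 0.62) on the log2 scale, with adjusted p-values of at most 3.96e-06.

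Red cell genes differed in how far the liver lay below the spleen. The log2 difference of 4.16 for Klf1 was within the 3.51 (Hba-a2) to 9.7 (Slc4a1) of the other members, and the transcription factor Nfe2 was at 4.31 (SE 0.56). The liver had 2.36 to 4.98 counts of Klf1 per 1000 globin counts, which overlapped the spleen's 1.51 to 3.34 and lay above kidney at 0.881 to 1.69. Ermap, a membrane protein of erythroid cells, was at 285.3 ± 167.5 CPM in WT spleen but at 0.0389 ± 0.0415 CPM in WT liver and 0.295 ± 0.11 in WT kidney. Gata1, the master factor of the lineage, was at 71.5 ± 38.3 CPM in WT spleen, 0.0357 ± 0.0398 in WT liver and 0.0574 ± 0.0634 in WT kidney (all SD, n = 3). Gata1 and Nfe2 are named here after their values were seen. Klf1 (chr8:84901928-84905291, plus strand) lies between Gcdh, which ends 8006 bases before it, and Dnase2a, which starts 3268 bases after it. In WT livers Gcdh was at 594.0 ± 29.9 CPM and Dnase2a at 21.6 ± 2.62, and in WT kidneys at 461.1 ± 58.6 and 17.6 ± 0.587 CPM; both neighbours were chosen by position, and their part in the counts of Klf1 was not tested.

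Epor, the receptor through which erythropoietin acts, was less tied to the spleen. WT spleens had 101.9, 105.1 and 27.5 CPM and Ctcf+/- spleens 22.2, 93.8 and 65.8 CPM. Kidney libraries ranged from 3.62 to 14.9 CPM and brain libraries from 6.2 to 7.22 CPM, inside the kidney range, while liver was at 1.81 to 2.48 and muscle at 0.0859 to 0.453 CPM. In brain, where globins varied up to 1.8-fold, Epor varied 1.16-fold. WT spleen exceeded WT kidney by 2.82 (SE 0.39), brain by 3.54 (SE 0.40), liver by 4.03 (SE 0.41) and muscle by 7.8 (SE 0.54) on the log2 scale, with adjusted p-values of at most 2.46e-05.

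Tfrc, the transferrin receptor, which dividing cells in general use to take up iron, had the narrowest range over tissues. It measured 536.7, 691.1 and 220.4 CPM in WT and 207.5, 381.4 and 534.0 CPM in Ctcf+/- spleens. Muscle followed at 106.8 to 191.4 CPM, brain at 80.2 to 117.1, kidney at 47.5 to 77.4 and liver at 8.78 to 26.7 CPM, and only muscle and brain overlapped. WT spleen exceeded WT liver by 3.88 (SE 0.40, adjusted p 1.73e-06), kidney by 2.74 (SE 0.39, adjusted p 3.26e-05) and brain by 2.16 (SE 0.39, adjusted p 0.000209) on the log2 scale.

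Against muscle the difference of Tfrc was 0.58 (SE 0.39) and did not pass the test (adjusted p 0.197), although no spleen library was as low in CPM as any muscle library. TMM scaling set the spleen lower relative to muscle than total counts did: scaled by total counts the difference was 1.89 (adjusted p 0.000965). Without WT spleen library 3 it was 0.96 (adjusted p 0.0163), and in the Ctcf+/- libraries it was -0.10 (adjusted p 0.742).

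In sum over the members, 9 of 9 were called higher in WT spleen than in WT brain, kidney and liver, and 8 of 9 than in WT muscle. Klf1, Epor and Slc4a1 held only 5 to 8 counts in single muscle libraries, and 5 members were called against muscle where every library had to hold at least 10 counts. Of all 22933 genes tested, 37.0% were called higher in spleen than in brain, 36.3% than in kidney, 37.7% than in liver and 38.1% than in muscle. The median log2 difference of the members was 7.55 against brain, 4.68 against kidney, 4.54 against liver and 7.62 against muscle, beside -0.13, -0.04, 0.04 and 0 for all genes. In bulk libraries more erythroid cells and more RNA per erythroid cell cannot be told apart. The markers of white blood cells were also high in spleen: all 8 B cell markers and all 9 neutrophil markers were called higher than in each of the other 4 tissues.

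The wider erythroid gene lists, chosen for their known roles, were measured in the same fits. Of 14 genes of the red cell membrane and surface, 13 were called higher in WT spleen than in liver and in kidney, and 11 than in brain and in muscle. The 2 lower than in muscle included Ank1, which builds a spectrin anchor in red cells and a short form in muscle, at 660.8 ± 58.6 CPM in WT muscle and 251.4 ± 159.2 in WT spleen; it is named after its values were seen. Of 10 genes of heme synthesis other than Alas2, 9 were called higher in spleen than in brain and in muscle, 8 than in kidney and 5 than in liver. Alas1, the form of the enzyme that other tissues use, was lowest in spleen, at 25.8 ± 2.99 CPM in WT against 272.2 ± 106.2 in liver, and was likewise picked after its values were seen. Of 10 erythroid transcription factors 9 or 10 were called higher in spleen than in each other tissue.

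The genes that feed and regulate the pathway went in both directions between organs. Of 18 tested genes of erythropoietin signalling and iron control, 5 were called higher and 12 lower in WT spleen than in liver. The counts were 7 higher and 8 lower against kidney, 10 and 5 against muscle, and 11 and 3 against brain. Fth1 and Ftl1, the ferritin chains that store iron, stood at 3818.4 ± 319.8 and 1494.3 ± 270.2 CPM in WT kidney and at 1616.8 ± 199.5 and 1343.6 ± 215.6 CPM in WT liver. Trf, the iron carrier of plasma, was at 1247.2 ± 327.3 CPM and Hamp, the hormone hepcidin that limits iron release, at 538.4 ± 240.2 CPM in WT liver. Epo itself, named after its values were seen, measured 0.0647, 0.851 and 0.122 CPM in WT kidneys and 0.0958, 2.11 and 0.589 CPM in Ctcf+/- kidneys, on 6 to 174 counts. The groups overlapped, and Ctcf+/- was the higher in 3 of 3 pairs of the same replicate number. The log2 difference was 1.39 (SE 1.09, edgeR adjusted p 0.979), and 1.47 (SE 0.36, edgeR p 0.00351, adjusted p 0.229) with the replicate number as a block, so that it passed the test in neither fit.

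Among the 6 spleens the levels of the members varied together. WT 3 and Ctcf+/- 1 were the 2 lowest libraries for all 9 members, with the highest library 3.33 to 5.88 times the lowest. WT 3 was the lowest for 6 members and Ctcf+/- 1 for Klf1, Epor and Tfrc. Of 13475 genes with a mean of at least 1 CPM in spleen, 8.14% had those same libraries as their 2 lowest. Of these 2 low libraries, 1 is WT and 1 is Ctcf+/-, and the cause of their low erythroid levels was not tested.

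**Figure D4:**
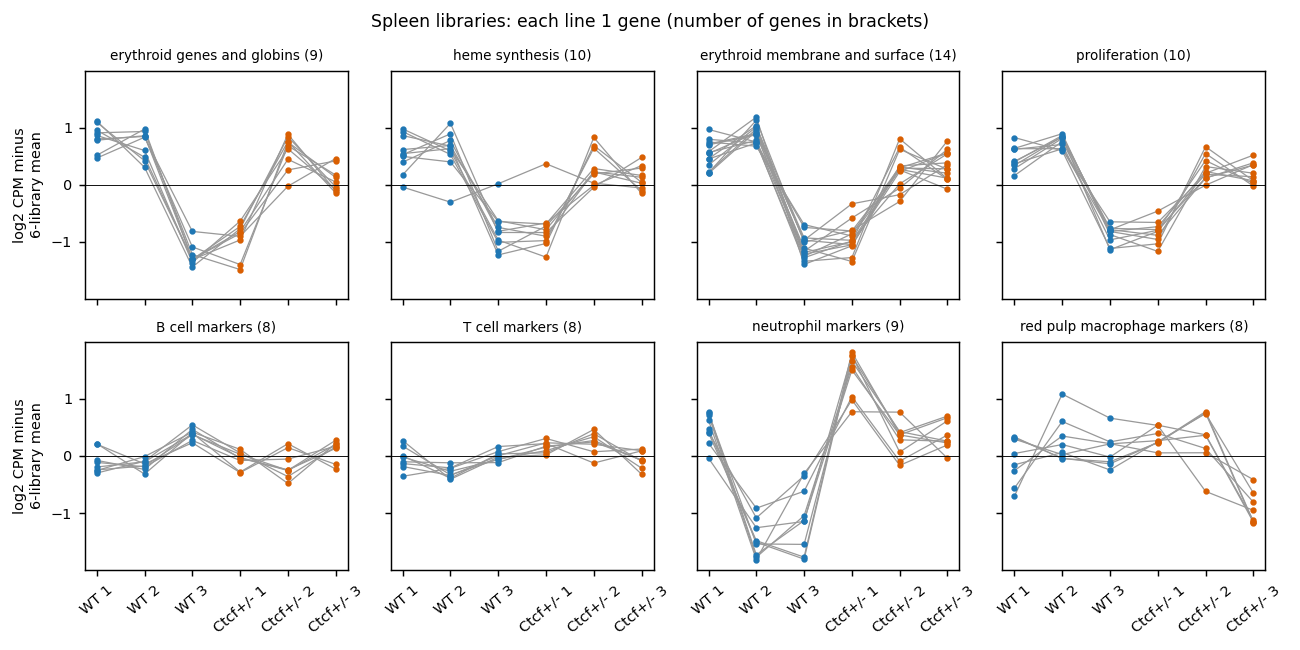
Log2 CPM of each gene in the 6 spleen libraries minus its mean over the 6, for the 9 erythroid genes and globins and 7 other lists. Each line is 1 gene, with WT points in blue and Ctcf+/- points in orange. The erythroid lists and the proliferation list dip in WT 3 and Ctcf+/- 1, B and T cell markers stay near 0, and neutrophil markers peak in Ctcf+/- 1.

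Other red cell genes had the same 2 lowest spleens. This held for all 14 genes of the membrane and surface list, such as Ermap, which measured 285.4, 452.7 and 117.8 CPM in WT and 114.4, 227.0 and 327.2 CPM in Ctcf+/- libraries. It held for 9 of 10 heme synthesis genes, among them Fech, which inserts the iron, and, with Cpox counted in both lists, for 11 of 13 erythroid enzymes and late genes, among them Bpgm, which makes the regulator of oxygen affinity. The exceptions were Alas1 in the former and Car1 and Pklr in the latter. Of the 10 transcription factors 6 had it, and Bcl11a, Zbtb7a, Myb and Gata2, which also act in other blood lineages, did not. All exceptions are named after their values were seen.

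Genes of dividing cells moved with them as well. All 10 proliferation genes had the same 2 lowest libraries, and Mki67 measured 798.3, 1071.8 and 273.2 CPM in WT and 341.2, 690.1 and 860.6 CPM in Ctcf+/- spleens. By contrast none of 8 B cell markers, 8 T cell markers, 9 neutrophil markers, 8 platelet markers or 8 red pulp macrophage markers had them. The summed B cell markers varied 1.44-fold over the 6 spleens, from 4457.5 to 6426.9 CPM, with the top in WT 3. The summed neutrophil markers varied 9.41-fold, from 630.1 CPM in WT 2 to 5928.7 CPM in Ctcf+/- 1, and their part in the levels of the members was not tested.

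Over all genes, those of the lists included, these 2 spleens were more often the 2 highest libraries than the 2 lowest. Of the 13475 genes with a mean of at least 1 CPM in spleen, 1097 had WT 3 and Ctcf+/- 1 as their 2 lowest libraries and 2357 as their 2 highest. Across all genes tested in spleen, deviations from the group means correlated with r of at most 0.82 between WT and Ctcf+/- libraries of different numbers. Which libraries gave that value is not identified here. It is a description across genes, which are not independent and share each library's depth.

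No member passed the test of Ctcf+/- against WT in any tissue. In the spleen all 9 fitted log2 differences of Ctcf+/- minus WT were below 0, from -0.24 for Hba-a2 (SE 0.76) to -0.47 for Alas2 (SE 0.66) and Klf1 (SE 0.77), each smaller than its standard error and with an edgeR adjusted p of 1. The groups overlapped for every member. The background share of called genes was 0.242% in spleen (45 of 18615). Without the 2 low libraries, a choice made after seeing the data, the differences were -0.36 for Hba-a2 to -0.62 for Alas2 (SE 0.35), again with adjusted p-values of 1. Without WT 1 alone the 4 globins turned above 0, up to 0.52 for Hba-a2, so the direction of the globin difference rested on single spleens.

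In muscle 2 members had groups that did not overlap, beside 11.3% of all genes tested there. Epor measured 0.116, 0.222 and 0.0859 CPM in WT and 0.32, 0.244 and 0.453 CPM in Ctcf+/- muscle, a log2 difference of 1.24 (SE 0.46, edgeR p 0.0265, adjusted p 0.654). The lowest of these libraries rests on 8 counts. Tfrc measured 144.2, 106.8 and 140.7 CPM in WT and 163.6, 191.4 and 164.2 CPM in Ctcf+/- muscle, a difference of 0.39 (SE 0.14, edgeR p 0.0231, adjusted p 0.647). Neither passed the test, the kidney markers given above also separated the muscle groups, and of all genes in muscle 0.0249% did. The globins of muscle were at -0.28 (SE 0.31) for Hba-a1 to 0.11 (SE 0.30) for Hbb-bt, and Klf1 was too low there to be tested.

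In the liver the globin levels of the Ctcf+/- libraries lay on both sides of those of WT. The log2 differences were 0.39 (SE 0.34) for Hbb-bs, 0.47 for Hba-a1 (SE 0.37) and Hbb-bt (SE 0.37), and 0.48 (SE 0.39) for Hba-a2, with adjusted p-values of 1. Ctcf+/- 2 and 3 were above every WT liver in all 4 globins, and Ctcf+/- 1 was the lowest liver for Hba-a1 and Hbb-bs. Alas2 was at 0.22 (SE 0.29) there and Slc4a1 at -0.07 (SE 0.48). The background share was 0.0193%.

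No kidney or brain difference passed the test either. In kidney Hba-a1 stood at 0.37 (SE 0.23) and Hbb-bs at 0.28 (SE 0.19), with adjusted p-values of at least 0.939, while Slc4a1 was at 0.05 (SE 0.10). In brain the globins lay between -0.03 and 0.08, with SEs of 0.15 to 0.23. The brain differences of Tfrc, at -0.29 (SE 0.13, edgeR p 0.0572), and Klf1, at -0.69 (SE 0.38, edgeR p 0.106), had an adjusted p of 1. Background shares were 0.0211% in kidney and 0.0157% in brain.

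Counted over the tests, 0 of 9 members were called in brain, kidney, liver and spleen and 0 of 8 in muscle by edgeR, and 0 in each tissue by DESeq2 and by limma-voom. The share of the genes given a p-value by DESeq2 that it called was 0.705% for muscle, 0.639% for spleen, 0.614% for kidney, 0.251% for liver and 0.0836% for brain. Groups without overlap were found for 2 of 9 members in muscle and 0 of 9 in each other tissue, beside 7.86% of all genes tested in brain, 11.1% in kidney, 8.52% in liver and 5.81% in spleen. At an unadjusted p under 0.05 there were 2, both in muscle, and 0 in the other 4 tissues. A test of whether the genotype difference varied between tissues called 0 of 9, with adjusted p-values of 1, against 0.758% of 24262 genes. The smallest unadjusted p of that test was 0.356, for Epor. None of these values shows that the genotypes are equal: in the spleen, a standard error of 0.54 to 0.79 on the log2 scale leaves wide room on both sides.

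Genes whose library-to-library pattern was most like that of the globins were sought over all tissues. The mean log2(CPM + 0.5) of the 4 adult globins was taken as a deviation from the tissue and genotype mean in each of the 30 libraries, and every one of 13789 genes was ranked by its Pearson r with it. Such points share a library and its depth, and r is given as a description. Alas2 had rank 5, right after the globins themselves, with r = 0.95, and at 0.943 over the 24 libraries outside the spleen. Klf1 ranked 52 (0.771), Slc4a1 89 (0.744), Epor 259 (0.67) and Tfrc 2685 (0.253). The added 0.5 CPM exceeds every muscle value of Klf1, Slc4a1 and Epor, which shrinks their deviations there. Its part in their r and ranks was not tested.

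Odc1, which encodes the first enzyme of polyamine synthesis, measured 579.9, 670.9 and 212.8 CPM in WT and 224.5, 546.5 and 380.7 CPM in Ctcf+/- spleens, and its r was 0.859. Among the other genes most like the globins were Sec61g (0.863), Pla2g16 (0.854), Ube2l6 (0.853), Mkrn1 (0.835), Cdr2 (0.833), Tmem256 (0.832), Hagh (0.827) and Napa (0.827). These 9 genes all had WT 3 and Ctcf+/- 1 as their 2 lowest spleens. They were chosen for their r with the globins over libraries that include these spleens, so this follows in part from the choice. Without the spleen libraries their r was 0.604 to 0.736, while that of Klf1 was 0.483, Slc4a1 0.542, Epor 0.238 and Tfrc -0.401.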

How the data were processed

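Total RNA was sequenced from 5 tissues, 3 WT and 3 Ctcf+/- libraries each. The authors deposited unscaled counts of fragments for each gene, obtained from featureCounts 1.5.0-p3 and Ensembl release 86 (GRCm38), per the file headers. Pairs of reads were counted over exons without regard to strand, and fragments with several alignments or several genes were left out. The submitters' processing notes name FastQC, STAR and DESeq2. The tables' exon length, deposited beside the counts in bases, gave RPKM. Symbols matched 48349 of 48709 gene identifiers; the listed symbols Hbb-b1, Hbb-b2 and Ahsp had no match.

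Genotype was tested within each tissue with edgeR 4.0.16 (R 4.3.3): filterByExpr, TMM and the quasi-likelihood test, with p-values adjusted over all genes tested (Benjamini-Hochberg) and called under 0.05. WT spleen was set against each other WT tissue in a fit of the 15 WT libraries, and the interaction of tissue and genotype was fitted over all 30. Data were also simulated with 1 spread per tissue, shared by all genes. There the genotype fit called 7% of genes changed 2-fold and 83% of those changed 4-fold in spleen. These shares do not hold for genes with a larger spread, and the members had SEs of 0.54 to 0.79 in spleen. In kidney it called 68% and 98%. The fit of WT spleen against WT kidney, simulated with an assumed spread, called 37% and 98%. Alternatives were DESeq2 1.42.0, limma-voom (limma 3.58.1), other scalings and filters, the globin partners summed, the replicate number as a block and each library left out. The members and lists were chosen with earlier results of these data known.

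Named are all members, Ctcf, up to 4 genes of each list with the highest mean in spleen (in kidney or liver for erythropoietin and iron), and the 10 genes most like the globins; other genes are said to be named after their values were seen. Some genes that this rule names are not reported here. Replicate numbers are shared by both genotypes, and libraries of the same number deviated together in 2 tissues: the lowest r between their deviations from the group means was 0.309 among brain libraries and 0.231 among kidney libraries. Both exceed 0.1, while the highest r between libraries of different numbers and genotypes was 0.313 in brain and -0.0292 in kidney. The tests given above used no replicate block unless they say so, and the block was fitted as an alternative.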

Additional observations from a re-analysis of the deposited data

How the results depend on the processing

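The 10 counts of called members were computed under 159 alternatives, of which 158 gave the same count within 1.5 times. The exception was WT spleen against WT muscle, where 5 members were called instead of 8 when every library had to hold at least 10 counts, a filter that removes members with low counts in muscle before the test. For single log2 differences, Tfrc in WT spleen against WT muscle was -0.10 in the Ctcf+/- libraries, 1.89 scaled by total counts and 0.96 without WT spleen 3. Leaving out each spleen library in turn, the Ctcf+/- against WT difference ranged from -1.07 to 0.38 for Hba-a1, from -0.91 to 0.52 for Hba-a2, from -0.94 to 0.28 for Hbb-bs, from -0.86 to 0.16 for Hbb-bt, from -0.83 to 0.03 for Slc4a1 and from -1.03 to 0.01 for Epor, and none was called. In fits that blocked on the replicate number, the spleen difference of Hba-a2 was 0.06 and that of Hba-a1 was -0.08, the block left 0 members called in every tissue, and it changed no other call. Same-numbered libraries had r of -0.539, -0.15 and 0.406 in spleen, 0.0363, 0.106 and 0.268 in liver and 0.0845, 0.356 and 0.468 in muscle. The highest r between libraries of different numbers and genotypes was 0.82 in spleen, 0.336 in liver and 0.11 in muscle. Whether the numbers mark pairs in these tissues is not known. Where the direction changed, the cause was not tested. Depth limits Klf1, Epor and Slc4a1 in muscle, where single libraries held 5 to 8 counts.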
